A study of Mus musculus with 12 samples.

Results

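The transcripts of 33 genes of cholesterol synthesis, uptake, storage and control were examined in mural granulosa cells (MGCs, which line the follicle wall) and cumulus cells (granulosa cells that enclose the oocyte). The genes were taken from a list of symbols drawn up with earlier results of these data known, with no threshold on their values, and 33 of 33 were found among the 26382 genes listed in both tables of the series. They comprise 8 early and 9 late synthesis enzymes and 16 other genes, of which 5 control SREBP, 4 serve uptake and trafficking, 3 storage and release, and 4 LXR and efflux.

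The cells came from wild-type (WT) C57/BL6 mice and from Sphk1/2gc−/− mice, which carry a germline null Sphk1, a floxed Sphk2 and Fshr-Cre. Sphk2 is thus deleted where the Fshr promoter was active, while each cell of the body carries the null Sphk1. SphK1 and SphK2 make sphingosine-1-phosphate (S1P). Immature females were primed with eCG and given hCG, which acts on the LH receptor, and RNA was collected at 2 h post-hCG in all groups. Each of the 4 groups (WT MGCs, Sphk1/2gc−/− MGCs, WT cumulus cells, Sphk1/2gc−/− cumulus cells) has 3 libraries. The sources used here do not say how many animals made up a library, so p-values measure the spread between these libraries.

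Cholesterol is built from acetyl-CoA in 2 stages. The early enzymes run through mevalonate and the isoprenoids to squalene, and the late enzymes close the ring and trim lanosterol to cholesterol. SREBP transcription factors, held in the endoplasmic reticulum by SCAP and INSIG proteins while sterol is plentiful, switch on the synthesis genes, and LXR receptors, which sense oxysterols, switch on export. Granulosa cells draw on cholesterol for steroid synthesis, and cumulus cells are known to supply cholesterol to the oocyte, which makes little of its own.

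Values are FPKM, fragments scaled by exon length and library total, and differences are on the log2(FPKM + 1) scale, which understates changes of low transcripts. Genes whose mean reached 0.5 FPKM in WT or in Sphk1/2gc−/− cells were tested with limma, and passed where the p adjusted by Benjamini-Hochberg over all of them was at most 0.05. The steps between FPKM values gave 16100364 to 19761604 reads per library. The targeted genes were checked first. In MGCs the WT libraries 1 to 3 had 1.68, 1.89 and 0.460 FPKM of Sphk1, and the Sphk1/2gc−/− libraries had 0.433, 0.557 and 0.104 FPKM. These groups overlapped, since Sphk1/2gc−/− library 2 lay above WT library 3, and Sphk1 reads were present in each Sphk1/2gc−/− MGC library. In cumulus cells Sphk1 had 7, 6 and 8 reads in the WT libraries but 7, 43 and 51 reads in the libraries labelled Sphk1/2gc−/−, which goes against the label, and each direction given below for cumulus cells rests on that label. Values per gene do not show which part of Sphk1 the reads came from, so they cannot settle the label. Sphk2 overlapped between the genotypes in both cell types, at 4.51 to 6.29 FPKM in MGCs and 0.403 to 0.752 FPKM in cumulus cells.

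The cell labels were checked with marker lists, whose FPKM values were summed. The 6 granulosa markers were present in every library, with sums of 7230 to 12400 FPKM in MGCs and 1400 to 2370 FPKM in cumulus cells, most of which was Inha. The 4 mural markers (Lhcgr, Cyp11a1, Nppc, Star) summed to 1410 to 1720 FPKM in WT MGCs and to 46.9 to 109 FPKM in WT cumulus cells. In Sphk1/2gc−/− MGCs they summed to 921, 816 and 427 FPKM, below each WT library. Against WT MGCs, the means there were 293 against 830 FPKM for Star and 133 against 378 FPKM for Cyp11a1. Lhcgr overlapped between the genotypes, and Nppc had the higher mean in Sphk1/2gc−/− MGCs, at 66.5 against 55.5 FPKM. The 4 endothelium markers summed to 7.36 to 8.79 FPKM in Sphk1/2gc−/− MGCs against 11.1 to 13.8 FPKM in WT. The 5 cumulus markers (Has2, Ptx3, Tnfaip6, Ptgs2, Slc38a3) did not mark the cumulus libraries as a sum, with 1100 to 1410 FPKM in WT MGCs and 311 to 704 FPKM in WT cumulus cells. They went both ways between WT cumulus cells and WT MGCs. Means were higher in cumulus cells for Has2 (55.4 against 15.25 FPKM) and Ptx3 (144.5 against 49.95 FPKM), without overlap. They were lower there for Tnfaip6 (187.8 against 857.7 FPKM), Ptgs2 (101.8 against 311.9 FPKM) and Slc38a3 (1.004 against 34.87 FPKM). Library 3 of the Sphk1/2gc−/− MGCs stood apart from the others, with a median correlation of 0.918 to the other MGC libraries against 0.963 to 0.965 for the rest, and with 202 FPKM of cumulus markers.

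The sequences upstream of the members are shown first, because SREBP acts together with the CCAAT-binding factor NF-Y at many of these genes. RefSeq promoters of build GRCm38.p6 were held for 27 of the 33 members, and not for Fdps, Fdft1, Sqle, Scarb1, Npc1 and Stard4. CCAAT, on either strand, was found in the 250 bases upstream of the start of 13 of 14 synthesis members and 21 of 27 members with a promoter, against 37.5% of 27025 genes. Within 100 upstream bases it was found in 12 of 14 synthesis members, against 21.6% of all genes. At that distance it was found in 8 of the 10 members with a promoter that passed as lower in cumulus cells. The synthesis members Hmgcs1, Mvk, Cyp51, Sc5d and Dhcr7, which did not pass there, had it too, so CCAAT did not set apart the members that fell. The sterol element TCACNCCAC, on either strand, was found in the 250 upstream bases of 1 member, Hmgcs1, against 1.22% of all genes. The windows below hold 30 bases around CCAAT within 100 upstream bases of the members that fell in cumulus cells, and around the element and the CCAAT of Hmgcs1. A further match in Msmo1 and in Idi1, beside the one shown, is left out. These were picked after the values were seen. Capitals mark the match, and ATTGG is CCAAT on the other strand.
Msmo1, chr8:64733616-64733645, minus strand: gagtggggcggaCCAATtacgacaggcgag
Mvd, chr8:122443465-122443494, minus strand: ggcctgtcgcctATTGGacagcacgggaaa
Mvd, chr8:122443432-122443461, minus strand: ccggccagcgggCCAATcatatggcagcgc
Idi1, chr13:8885549-8885578, plus strand: tgcctccagctgATTGGcgagcccgggcat
Lss, chr10:76531531-76531560, plus strand: ggtgatgctctgATTGGccgagctcgcatc
Tm7sf2, chr19:6067880-6067909, minus strand: ctcccagcgctgATTGGctactgtgctggg
Nsdhl, chrX:72918489-72918518, plus strand: aagactagcctcATTGGgcaaaatcatgct
Ebp, chrX:8193550-8193579, minus strand: atccctgtactgATTGGttcgtcagattcg
Nceh1, chr3:27182942-27182971, plus strand: acgcagcctgtgATTGGctcgcagcctgag
Hmgcs1, chr13:119690204-119690233, plus strand: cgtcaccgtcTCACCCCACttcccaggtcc
Hmgcs1, chr13:119690294-119690323, plus strand: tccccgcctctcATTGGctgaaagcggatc
In these windows CCAAT began 20 to 62 bases before the RefSeq start, and the sterol element of Hmgcs1 began 137 bases before it. The windows of Msmo1, Idi1, Tm7sf2 and Nceh1 overlap an exon of the GENCODE M21 annotation, which has transcripts that start further upstream, and the other windows lie outside annotated exons. A match is a stretch of letters and no measured binding site.

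In cumulus cells the synthesis genes were lower in the libraries labelled Sphk1/2gc−/−. Of 31 members tested, 12 passed as lower, against 12.7% of the 12205 genes tested, and 3 passed as higher, against 9.66%. The lower ones were 10 of 16 synthesis members tested (5 of 7 early and 5 of 9 late) and 2 of 15 other members. The 3 higher ones were Scarb1, listed under uptake and trafficking, and Abca1 and Mylip, listed under LXR and efflux. The log2 fold change was below 0 in 16 of 16 synthesis members, with a median of −1.09, against −0.21 for the 15 other members tested and −0.06 over all genes. All 3 libraries labelled Sphk1/2gc−/− lay below all 3 WT libraries in 10 of 16 synthesis members, against 24.1% of all genes tested. In bulk RNA, fewer cells that express a gene and less RNA per cell cannot be told apart.

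**Figure D1:**
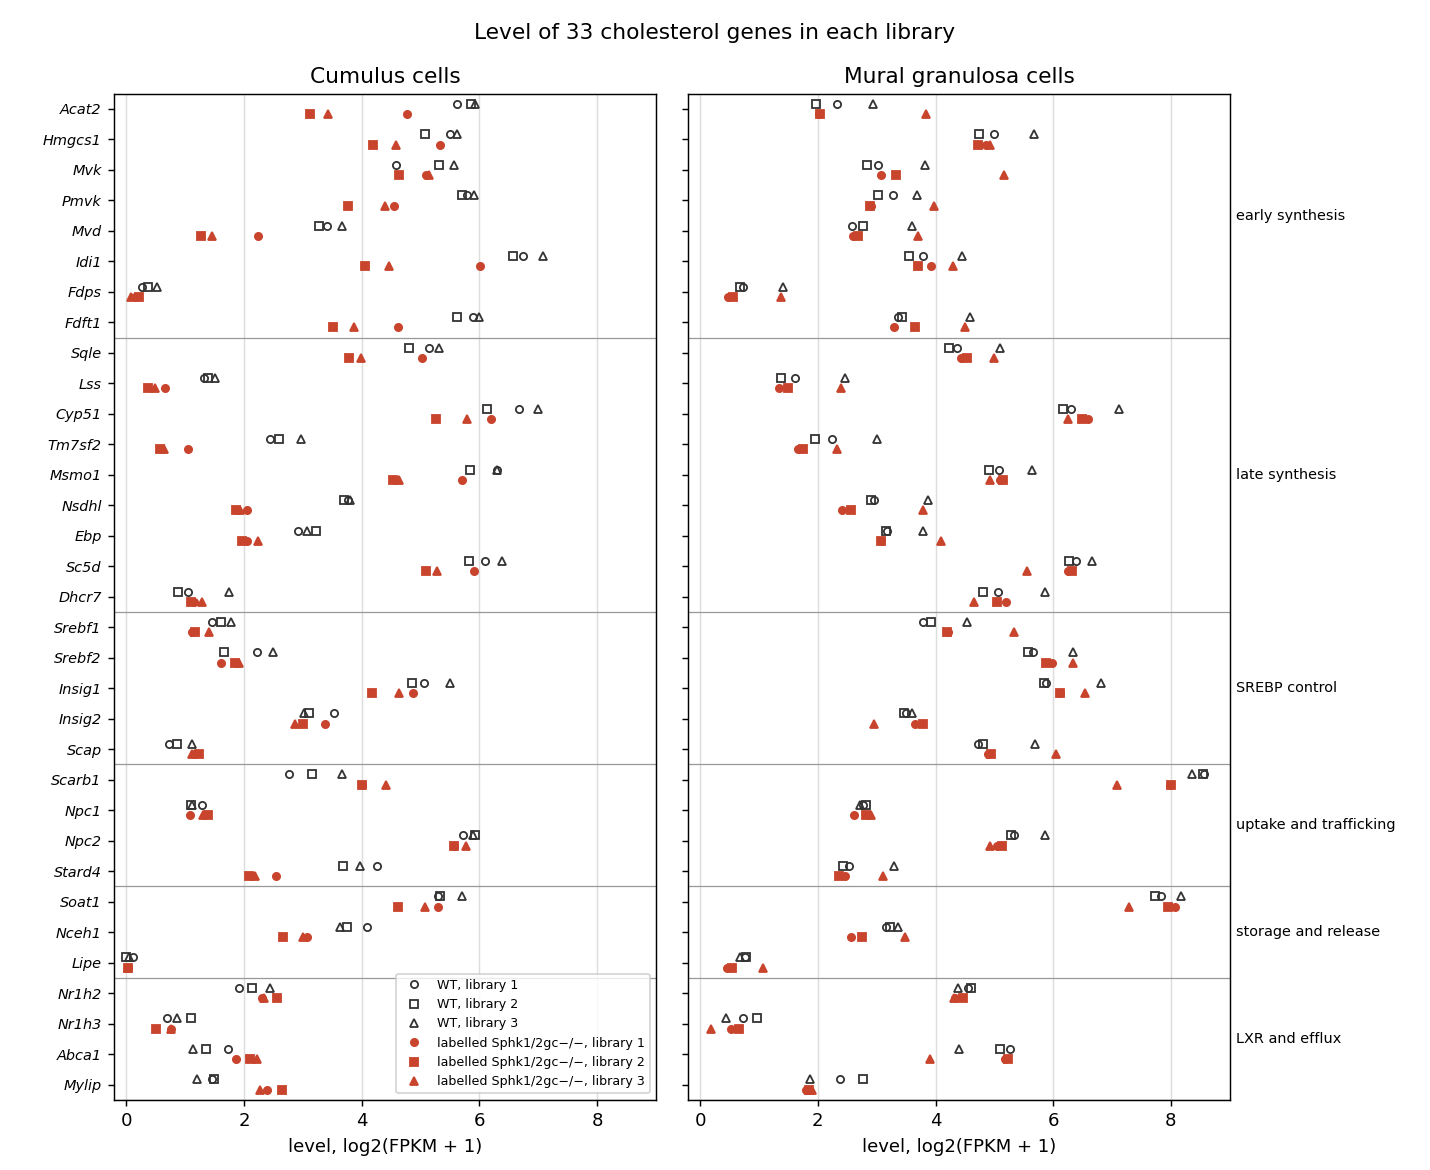
Level of each of the 33 genes, as log2(FPKM + 1), in the 6 cumulus cell libraries (left) and the 6 MGC libraries (right). Open symbols are WT and filled symbols are libraries labelled Sphk1/2gc−/−, with circles, squares and triangles for libraries 1, 2 and 3. In cumulus cells the filled symbols lie left of all open ones for 10 of 16 tested synthesis genes, while in MGCs library 3 of either genotype lies to the right for most synthesis genes.

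Acat2, an acetoacetyl-CoA thiolase at the first step (chromosome 17, 12942890 to 12960747), was at 48.2, 57.0 and 59.5 FPKM in WT cumulus libraries 1 to 3. It was at 26.2, 7.76 and 9.73 FPKM in libraries with the Sphk1/2gc−/− label, which is below each WT library, with means of 54.9 ± 5.92 and 14.6 ± 10.2 FPKM (SD, n = 3; log2 fold change −2.03, SE 0.38, limma adjusted p = 0.0089). Its near-identical neighbour in sequence, Acat3, was at 0.200 to 0.631 FPKM in cumulus cells. Idi1, the isopentenyl diphosphate isomerase (chromosome 13, 8885501 to 8892451), was at 106, 93.6 and 135 FPKM in WT and at 63.6, 15.6 and 21.1 FPKM in libraries with the Sphk1/2gc−/− label (log2 fold change −1.95, SE 0.45, limma adjusted p = 0.018). Fdft1, squalene synthase, which commits the pathway to sterols (chromosome 14, 63145150 to 63179578), was at 58.8, 48.5 and 62.5 FPKM in WT and at 23.7, 10.5 and 13.6 FPKM under the other label (log2 fold change −1.84, SE 0.27, limma adjusted p = 0.0040). In these 3 genes the groups did not overlap, and library 1 labelled Sphk1/2gc−/− lay between WT and the other 2. Exons of Fdft1 overlap those of Ctsb on the opposite strand over 18.3% of their length, and Ctsb was higher under the Sphk1/2gc−/− label, at 43.0 to 59.0 against 22.8 to 40.0 FPKM.

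Pmvk, the phosphomevalonate kinase, and Mvd, the mevalonate diphosphate decarboxylase, also passed, with log2 fold changes of −1.56 and −1.79. The other early enzymes did not pass. Hmgcs1, the cytosolic HMG-CoA synthase, had −0.70 on the log2 scale (SE 0.29, limma adjusted p = 0.12), and Mvk, mevalonate kinase, one of −0.20 (SE 0.27, limma adjusted p = 0.61). Fdps, the farnesyl diphosphate synthase, was below the level tested, with 14, 22 and 32 reads in WT cumulus libraries and 9, 14 and 5 reads in those labelled Sphk1/2gc−/−. Its level is uncertain, because 26.7% of its exon bases are shared with the gene Gm43738 on the same strand and the counting rule is not given in the sources used here.

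Among the late enzymes Tm7sf2 and Nsdhl had the largest differences. Nsdhl, a sterol dehydrogenase of C4 demethylation (chromosome X, 72918557 to 72958514), was at 12.6, 12.0 and 13.0 FPKM in WT and at 3.13, 2.66 and 2.81 FPKM in libraries with the Sphk1/2gc−/− label (log2 fold change −1.81, SE 0.14, limma adjusted p = 0.00035). Tm7sf2, a sterol C14 reductase (chromosome 19, 6062821 to 6068373), was at 4.44, 5.01 and 6.80 FPKM in WT and at 1.08, 0.494 and 0.569 FPKM under the other label (log2 fold change −1.90, SE 0.20, limma adjusted p = 0.0011). Both genes separated the groups with a wide gap. Exons of Tm7sf2 overlap those of Vps51 on the same strand over 12.1% of their length, and how shared reads were counted is not given. Vps51 was at 0.746, 1.11 and 0.887 FPKM in WT and at 0.716, 0.778 and 0.615 FPKM under the other label. Msmo1, the C4 methylsterol oxidase (chromosome 8, 64718139 to 64733792), was at 78.2, 56.0 and 78.2 FPKM in WT and at 50.9, 22.1 and 23.8 FPKM under the Sphk1/2gc−/− label (log2 fold change −1.20, SE 0.31, limma adjusted p = 0.029), without overlap although library 1 came close to WT library 2.

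Lss, which closes the sterol ring, and Ebp, a sterol isomerase, passed with log2 fold changes of −0.90 and −0.99. The other 4 late enzymes did not pass. Sqle, squalene epoxidase and a rate-limiting step of this branch, had −0.82 (limma adjusted p = 0.097), Cyp51, the lanosterol demethylase, −0.85 (limma adjusted p = 0.069) and Sc5d, a sterol desaturase, −0.68 (limma adjusted p = 0.078). Dhcr7, the last reductase to cholesterol, was at 0.832 to 2.35 FPKM in both groups together, with a log2 fold change of −0.04 (SE 0.23).

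**Figure D2:**
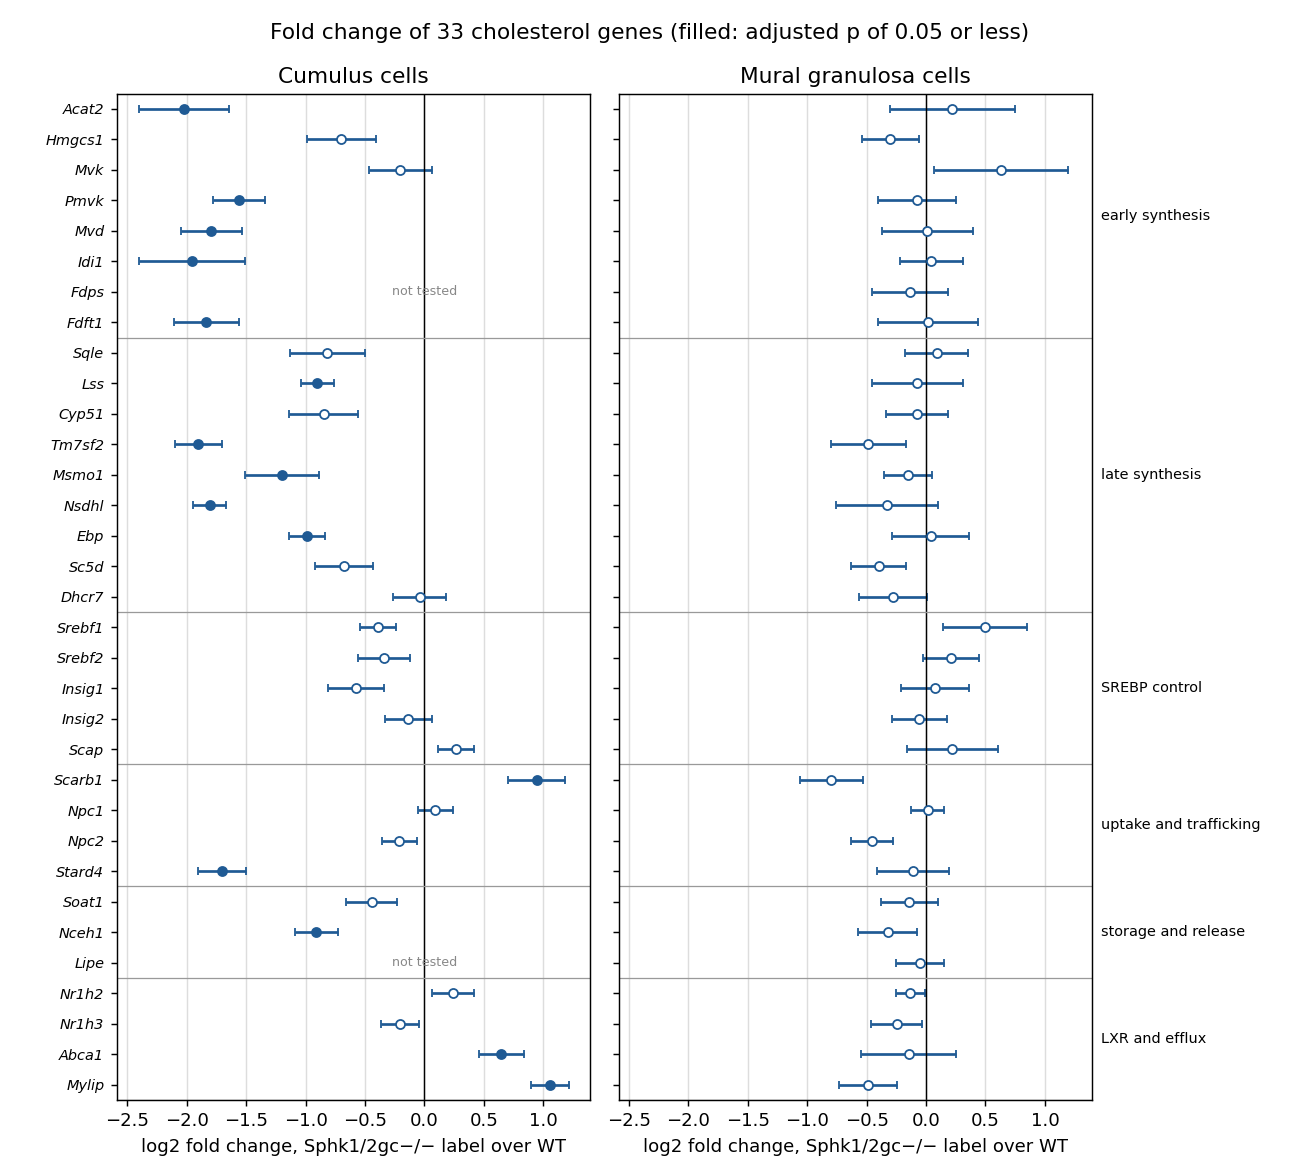
Log2 fold change of each of the 33 genes, Sphk1/2gc−/− label over WT, with its standard error, in cumulus cells (left) and MGCs (right). Filled points passed at an adjusted p of 0.05 or less: 12 lower and 3 higher in cumulus cells and 0 in MGCs, while Fdps and Lipe were not tested in cumulus cells.

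Library 1 labelled Sphk1/2gc−/− was the highest of its group in 13 of 16 synthesis members. The mean log2(FPKM + 1) over these 16 genes was 4.58, 4.49 and 4.87 in the WT cumulus libraries, and 3.90, 3.07 and 3.35 in those labelled Sphk1/2gc−/−. Each of the latter lay below each WT library, and library 1 was nearest to WT. In library 1, 16 of 16 synthesis members were below the WT mean, in library 2 also 16, and in library 3 15. Without library 1, 17 members passed as lower, against 17.8% of 12335 genes tested, and 3 as higher, against 14%, the 5 added being Hmgcs1, Sqle, Cyp51, Sc5d and Insig1. Leaving out any other cumulus library left 10 to 12 members lower, while 684 to 1182 of the 12185 to 12261 genes tested passed as lower. Of the 15 members that passed, 11 did so in each of the 6 fits that left out a library: Acat2, Pmvk, Mvd, Fdft1, Lss, Tm7sf2, Nsdhl, Ebp, Stard4, Nceh1 and Mylip. Idi1 did not pass without WT library 1 or 3 or without library 3 labelled Sphk1/2gc−/− (limma adjusted p of up to 0.0723), and Msmo1 did not without WT library 1 or 3 or without library 2 or 3 of that label (limma adjusted p of up to 0.104). Idi1, Msmo1, Scarb1 and Abca1 also did not pass when no filter on low values was used.

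**Figure D3:**
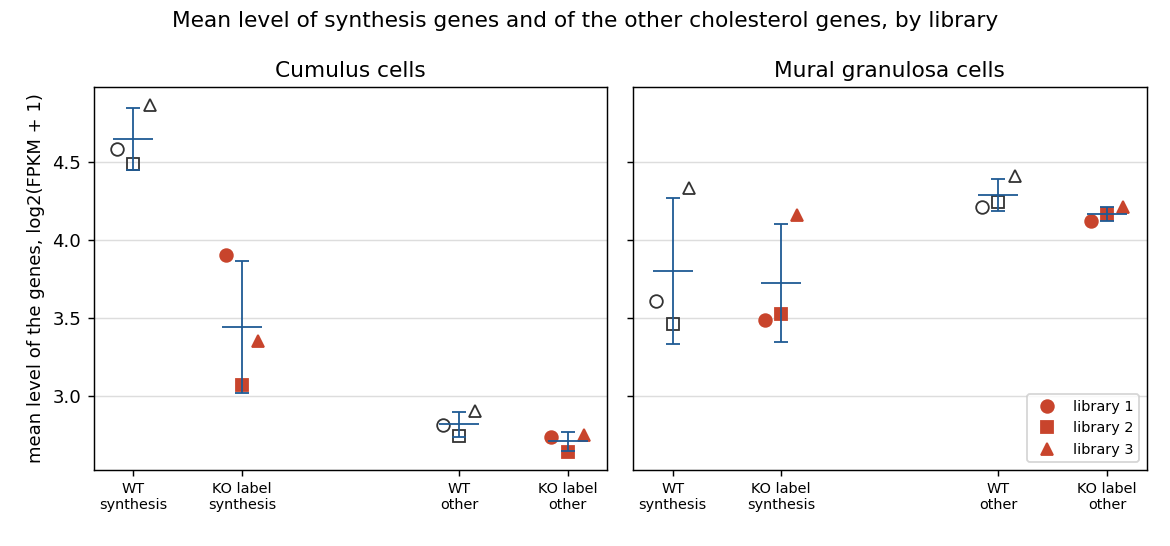
Mean log2(FPKM + 1) of the tested synthesis genes and of the other tested cholesterol genes in each library, for cumulus cells (left) and MGCs (right). Open symbols are WT, filled symbols are libraries labelled Sphk1/2gc−/− (KO label), circles, squares and triangles are libraries 1, 2 and 3, and bars give the mean ± SD of 3 libraries. The synthesis means fall from 4.49 to 4.87 in WT to 3.07 to 3.90 in cumulus cells, while in MGCs library 3 lies at 4.33 in WT and 4.16 in Sphk1/2gc−/−, and libraries 1 and 2 lie at 3.46 to 3.61.

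None of the 5 SREBP control genes passed in cumulus cells by limma, and 2 of them, Srebf1 and Insig1, were lower at an unadjusted p of 0.05 or less, as were 18 of all members tested, against 21.9% of all genes. As higher there were 3 members at that limit, against 16.3% of all genes. Insig1, the sterol-regulated anchor of SREBP and itself an SREBP target, was at 32.3, 27.9 and 44.4 FPKM in WT and at 28.4, 17.1 and 23.8 FPKM under the other label (log2 fold change −0.57, SE 0.23, limma adjusted p = 0.11). Srebf1, which encodes SREBP-1, was at 1.75, 2.07 and 2.42 FPKM and at 1.17, 1.25 and 1.65 FPKM, so that the groups did not overlap although the gene did not pass (log2 fold change −0.39, SE 0.15, limma adjusted p = 0.10). Srebf2, whose product SREBP-2 drives most of the synthesis genes, was at 3.69, 2.17 and 4.62 FPKM in WT and at 2.05, 2.59 and 2.77 FPKM in libraries with the Sphk1/2gc−/− label, with overlapping groups (log2 fold change −0.34, SE 0.22). Insig2 had −0.13 and Scap, the escort of SREBP, 0.27.

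Uptake and trafficking genes moved in both directions. Stard4, a soluble sterol carrier that is itself an SREBP target, was at 18.1, 11.8 and 14.7 FPKM in WT cumulus cells and at 4.83, 3.23 and 3.54 FPKM under the Sphk1/2gc−/− label (log2 fold change −1.70, SE 0.20, limma adjusted p = 0.0017). Scarb1, the receptor that takes cholesterol esters from HDL (chromosome 5, 125277087 to 125341094), went the other way, at 5.81, 7.91 and 11.7 FPKM in WT and 15.03, 15.1 and 20.2 FPKM under the other label (log2 fold change 0.95, SE 0.24, limma adjusted p = 0.027). Neither gene overlapped between the groups, but Scarb1 did not pass without WT library 1 or 2, or without library 2 or 3 labelled Sphk1/2gc−/− (limma adjusted p of up to 0.098). Npc2, which hands cholesterol out of the lysosome, was at 51.9, 59.7 and 58.6 FPKM and at 46.6, 46.5 and 53.8 FPKM (log2 fold change −0.21, SE 0.14, limma adjusted p = 0.33). Its partner Npc1 had 0.09.

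Of the storage genes, Nceh1, which hydrolyses stored cholesterol esters (chromosome 3, 27182965 to 27284608), was at 16.01, 12.5 and 11.4 FPKM in WT cumulus cells and at 7.42, 5.37 and 7.02 FPKM in libraries with the Sphk1/2gc−/− label, without overlap (log2 fold change −0.91, SE 0.18, limma adjusted p = 0.011). Soat1, which makes the esters, was at 38.3, 39.3 and 51.3 FPKM and at 38.5, 23.6 and 32.8 FPKM, with overlap (log2 fold change −0.44, SE 0.21, limma adjusted p = 0.16). Lipe, hormone-sensitive lipase, had 8, 0 and 4 reads in WT and 2 in each of the other libraries, at or near the floor of 3 reads, and was not tested.

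Of the LXR and efflux genes 2 of 4 passed as higher, against 9.66% of all genes tested. Mylip, an LXR target that encodes a ubiquitin ligase (chromosome 13, 45389742 to 45412022), was at 1.75, 1.82 and 1.30 FPKM in WT and at 4.27, 5.26 and 3.85 FPKM under the other label (log2 fold change 1.05, SE 0.16, limma adjusted p = 0.0045). Abca1, the LXR-induced cholesterol exporter (chromosome 4, 53030787 to 53159895), was at 2.34, 1.57 and 1.20 FPKM and at 2.65, 3.29 and 3.64 FPKM (log2 fold change 0.65, SE 0.19, limma adjusted p = 0.043). Both genes separated the groups, but Abca1 did not pass without WT library 2 or 3, or without library 2 or 3 labelled Sphk1/2gc−/− (limma adjusted p of up to 0.133). The receptors themselves had log2 fold changes of 0.24 for Nr1h2 (LXRβ), at 2.76, 3.42 and 4.41 FPKM in WT and 3.97, 4.92 and 4.04 FPKM under the other label, and of −0.21 for Nr1h3 (LXRα), which was below 1.2 FPKM throughout.

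Markers of other cells were at low levels in cumulus cells, and 2 of 5 lists separated the groups. The 9 theca and stroma markers summed to 18.0 to 65.6 FPKM in WT and 12.2 to 33.7 FPKM under the Sphk1/2gc−/− label, the 10 leukocyte markers to 2.63 to 43.5 and 8.30 to 57.2 FPKM, the 8 oocyte markers to 1.97 to 4.99 and 1.20 to 1.65 FPKM, the 4 endothelium markers to 0.204 to 0.491 and 0.137 to 0.182 FPKM, and the 3 red cell markers listed to 0.346 to 22.4 and 0.200 to 1.42 FPKM. These were the oocyte and endothelium lists, both lower under the Sphk1/2gc−/− label, and the other 3 overlapped. Cd74 was listed at 0 in the WT libraries, and Cd3e and Tie1 in those labelled Sphk1/2gc−/−. Markers of the granulosa cells themselves moved as well, where 12.7% of all genes tested passed as lower and 9.66% as higher. Of the 6 granulosa markers 4 passed as lower under that label, among them Cyp19a1, the aromatase, at 45.3, 57.4 and 83.7 FPKM in WT and 16.9, 8.90 and 8.11 FPKM under the other label, and Nr5a2, a nuclear receptor of steroidogenic cells, at 32.3, 25.0 and 27.5 and at 7.22, 10.5 and 10.6 FPKM. Of the 4 mural markers 2 passed as lower, Lhcgr, the LH receptor, at 18.7, 7.71 and 12.6 and at 1.93, 4.62 and 2.82 FPKM, and Cyp11a1, the side-chain cleavage enzyme, at 16.3, 5.86 and 13.4 and at 1.33, 3.20 and 0.608 FPKM, while the mural sums overlapped. The cumulus markers summed to 311 to 704 FPKM in WT and 1080 to 1340 FPKM under the other label, and 3 of 5 passed as higher. The part of these markers in the differences of the cholesterol genes was not tested.

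Other genes of the pathway were taken from a wider list of 30. Of 26 tested in cumulus cells 4 passed as lower and 3 as higher, near the shares of 12.7% and 9.66% over all genes, with a median log2 fold change of −0.10. Hsd17b7, the 3-ketosteroid reductase of the late pathway, which also makes estradiol from estrone, was at 21.03, 12.6 and 17.8 FPKM in WT and at 4.86, 2.47 and 3.86 FPKM under the other label (log2 fold change −1.95, SE 0.25, limma adjusted p = 0.0023). Plin2, a lipid droplet coat protein, had 0.94. Ch25h, which makes the oxysterol 25-hydroxycholesterol, rose from 0.874, 0.412 and 0.506 FPKM to 2.79, 5.96 and 7.53 FPKM (log2 fold change 1.94, SE 0.29, limma adjusted p = 0.0040).

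Fatty acid genes, many of them SREBP targets too, were mostly lower. Of 18 listed, 14 were tested in cumulus cells. As lower 8 passed, against 12.7% of all genes tested, and 0 as higher, against 9.66%. The 14 and the 8 include Tmem97, which is on the list but is no fatty acid enzyme. The median log2 fold change was −0.82 against −0.06 over all genes. The largest changes were those of Scd1, the stearoyl-CoA desaturase, with −1.57, Tmem97, a sterol-responsive membrane protein, with −1.50, the desaturases Fads1 and Fads2 with −1.31 and −1.27, and Lpin1, a phosphatidate phosphatase, with −1.26 on the log2 scale. Fasn, fatty acid synthase, did not pass, at 0.43 on that scale (SE 0.23, limma adjusted p = 0.20).

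In MGCs no member passed over the 6 libraries, neither lower, against 0.0327% of 15279 genes tested, nor higher, against 0.00654%. At an unadjusted p of 0.05 or less there were 2 lower, against 5.9% of all genes, and 0 higher, against 3.31%, so that the share of the members was near that of all genes. The median log2 fold change was −0.08 over the 17 synthesis members and −0.12 over the 16 others, against −0.003 over all genes. Scarb1 had the largest value, with 378, 372 and 327 FPKM in WT against 253, 255 and 135 FPKM in Sphk1/2gc−/− cells, without overlap (log2 fold change −0.80, SE 0.26, limma adjusted p = 0.44). Mvk was at 7.09, 6.15 and 13.1 FPKM in WT against 7.45, 9.01 and 34.8 FPKM in Sphk1/2gc−/− cells (log2 fold change 0.63, SE 0.56), and without library 3 of the latter its value turned to −0.021. Srebf1 was at 12.9, 14.2 and 22.3 FPKM and at 17.6, 17.4 and 39.5 FPKM (log2 fold change 0.50, SE 0.35), with overlap. Mylip was at 4.201, 5.83 and 2.64 FPKM and at 2.48, 2.59 and 2.72 FPKM (log2 fold change −0.49, SE 0.24), where WT library 3 lay among the Sphk1/2gc−/− libraries.

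The spread in MGCs lay between library numbers more than between genotypes. WT library 3 was the highest of its group in 17 of 17 synthesis members, and Sphk1/2gc−/− library 3 in 13 of 17. The mean log2(FPKM + 1) over the 17 genes was 3.61, 3.46 and 4.33 in the WT libraries, against 3.48, 3.53 and 4.16 in the Sphk1/2gc−/− ones. The oocyte markers were at 35.3, 87.9 and 60.1 FPKM in WT MGC libraries and 25.8, 83.0 and 110 FPKM in Sphk1/2gc−/− ones, and the red cell markers at 259 to 399 FPKM in 3 WT libraries and at 287, 226 and 29.9 FPKM in Sphk1/2gc−/− libraries 1 to 3. The part of these in the spread was not tested. With the library number as a block 0 members passed in either direction.

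Libraries 1 and 2 of each genotype alone, 4 MGC libraries, gave calls for 7 members. As lower, 4 passed, against 11.0% of 15433 genes tested, and as higher 3, against 5.07%, and none of the 7 changed 2-fold. The median over all genes was −0.12 in this fit. Lower were Mylip (−0.75, limma adjusted p = 0.041), Scarb1 (−0.56, limma adjusted p = 0.0091), Nceh1 (−0.54, limma adjusted p = 0.031) and Nsdhl (−0.45, limma adjusted p = 0.041). Higher were the SREBP control genes Srebf1 (0.35), Srebf2 (0.31) and Insig1 (0.25). Of these, Nceh1 and Nsdhl passed as lower in cumulus cells too, and Scarb1 and Mylip passed as higher there. Of 17 synthesis members 1, Nsdhl, passed. Hsd17b7 was at 44.6, 31.0 and 75.6 FPKM in the WT MGC libraries against 10.2, 9.84 and 16.9 FPKM in those from Sphk1/2gc−/− mice, without overlap (log2 fold change −1.89, SE 0.35, limma adjusted p = 0.16), and it passed over the 4 libraries (−1.79, limma adjusted p = 0.0091), while the library number as a block gave a limma adjusted p of 0.074.

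Whether the genotype difference itself differed between the cell types was tested as an interaction in all 12 libraries. Of 33 members 1 was relatively lower in cumulus cells, against 1.48% of 15869 genes tested, and 2 were relatively higher, against 2.45%. The lower one was Stard4, with a difference of −1.59 (SE 0.38, limma adjusted p = 0.040). The higher ones were Scarb1 with 1.74 (SE 0.38, limma adjusted p = 0.031) and Mylip with 1.55 (SE 0.29, limma adjusted p = 0.020). Among the synthesis members the largest differences were those of Acat2 with −2.25 (SE 0.71, limma adjusted p = 0.093), Idi1 with −1.999 (SE 0.59, limma adjusted p = 0.078) and Fdft1 with −1.85 (SE 0.54, limma adjusted p = 0.076), and 16 of 17 synthesis members had a negative value. These calls depended on the libraries: 9 members were relatively lower with the library number as a block, against 2.4% of all genes, 9 with MGC libraries 1 and 2 alone, against 5.44% of 15973 genes tested, and 0 without WT cumulus library 1, 2 or 3, without cumulus library 2 or 3 labelled Sphk1/2gc−/−, or without WT MGC library 1 or 2. Of the 9 with the block, 8 were synthesis members (Acat2, Pmvk, Mvd, Idi1, Fdft1, Tm7sf2, Nsdhl and Ebp), and 2 were relatively higher, against 3.43% of all genes. With MGC libraries 1 and 2 alone 2 were relatively higher, against 10.0%. Each of these differences rests on the cumulus label that Sphk1 goes against. With the sign of the cumulus difference turned, a value computed after the data were seen and not tested, Scarb1 would have −0.15, Mylip −0.56 and Stard4 1.81.

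The 33 members were also compared between WT cumulus cells and WT MGCs. Because the cell types are in separate tables and whether these were scaled together is not given in the sources used here, cell type and table cannot be told apart, and the median over all 15869 genes tested was −0.54. Of 33 members 8 were higher in cumulus cells (24.2%), against 24.1% of all genes, so that this count was at the share of all genes. As lower there were 12 (36.4%), against 52.5%. With each library centred on its median, 9 were higher, against 28.5% of all genes, and 12 lower, against 45.7%. With quantile normalization, 11 were higher, against 35.6%, and 11 lower, against 34.1%, so that the excess of lower genes over all genes depended on the scaling. The 8 were 5 of the 8 early synthesis enzymes, 1 late one, Stard4 and Nceh1. Acat2 had a difference of 3.39 (48.2 to 59.5 against 2.93 to 6.67 FPKM), Idi1 of 2.87 (93.6 to 135 against 10.7 to 20.7 FPKM), Pmvk of 2.47 and Fdft1 of 2.04, and Stard4 had 1.22. These groups did not overlap.

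The lower ones were 11 of 16 members outside synthesis, and Dhcr7. Scarb1 differed most, with −5.29 (5.81 to 11.7 FPKM in cumulus cells against 327 to 378 FPKM in MGCs), followed by Scap with −4.18, Dhcr7 with −4.02, Srebf2 with −3.72 and Abca1 with −3.51. Scap was at 0.659 to 1.16 FPKM in WT cumulus cells and at 25.5 to 50.6 FPKM in WT MGCs. Each of the 10 differences named for the WT cells passed in each of the 12 fits that left out a library. Across 15849 genes the difference had a Spearman correlation of −0.35 with GC content and −0.26 with length of the longest transcript, a description over genes that share the same libraries. The median GC content was 49.6% for the synthesis members and 49.0% for the others. For the genotype difference in cumulus cells the correlation with GC content was 0.09 over 12195 genes.

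**Figure D4:**
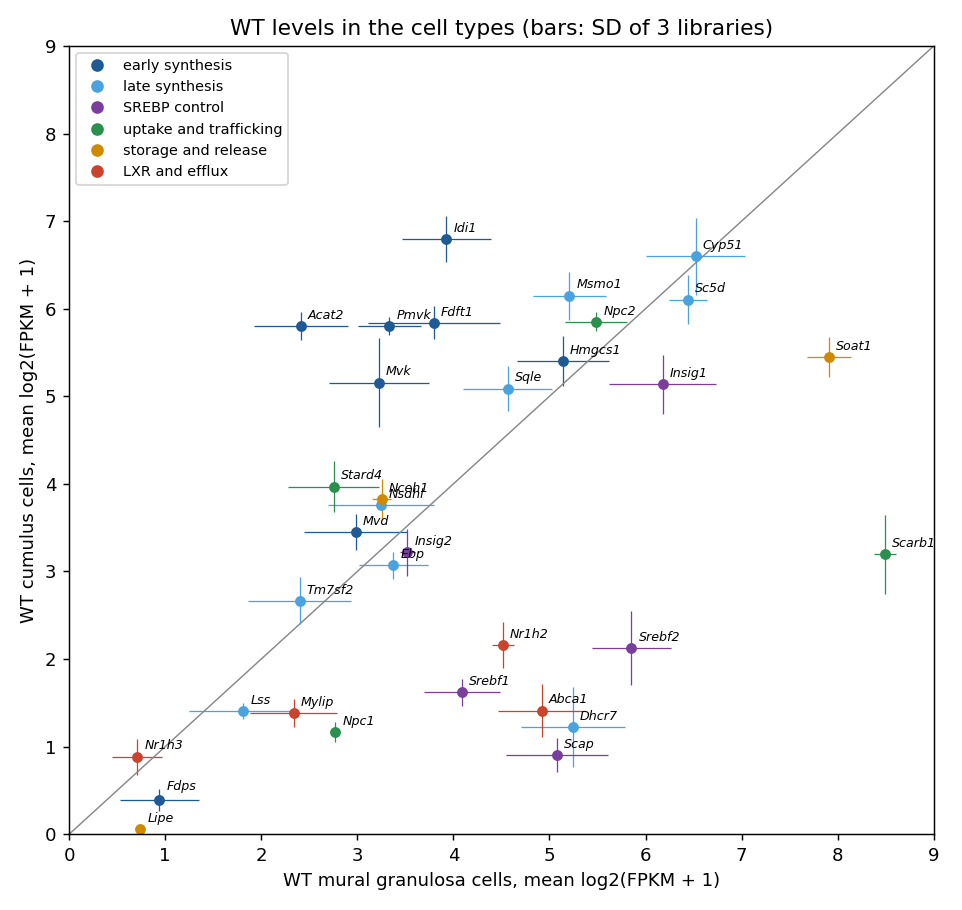
Mean log2(FPKM + 1) of the 33 genes in WT MGCs (horizontal) and WT cumulus cells (vertical), with the SD of 3 libraries as bars and colours for the role. The line marks equal levels: the early synthesis genes Acat2, Idi1, Pmvk, Fdft1 and Mvk lie above it, and Scarb1, Soat1, Srebf2, Scap, Dhcr7 and Abca1 lie well below it.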

How the data were processed

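RNA of 12 libraries (3 per genotype and cell type) was prepared from total RNA with the NEBNext Ultra kit, which does not mark strand, and was analysed by a company. The authors deposited FPKM in a table per cell type (29101 genes in MGCs, 33137 in cumulus cells). The submitters' processing notes name HISAT2 and GRCm38. The counting tool is not given in the sources used here. Symbols, positions and exon lengths were taken from GENCODE M21 (GRCm38). FPKM multiplied by exon length fell on whole reads, within 0.02 reads, for 90.6% to 92.1% of values above 0, which gave the read totals and reads per gene. 0 columns were left unused.

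The members and lists were chosen with earlier results of these data known. Genotypes were compared with limma 3.58.1 (R 4.3.3, with an intensity trend) after log2(FPKM + 1), where a group mean reached 0.5 FPKM, two-sided, with Benjamini-Hochberg adjustment over all genes tested. The interaction and the WT comparison used all 12 libraries. All members may be named. Values per library were given for the 3 members of each role with the largest change in cumulus cells, the 4 with the largest change in MGCs and the 3 with the largest interaction; from the wider lists the 5 largest changes that passed were to be named, and some of these are not reported here. Fasn, Acat3 and Ctsb were added after their values were seen. Members whose promoter held TCACNCCAC and that passed in cumulus cells were to be shown, and there were 0, so the windows printed were chosen afterwards. In MGCs, deviations from the group means correlated between same-numbered libraries at 0.22, 0.158 and 0.224, so the number was used as a block in an alternative fit. These values cannot show a pairing. Deviations within a group of 3 add to 0, so a shift shared by library 3 alone could give them. Libraries of different number were not compared, and no label states a shared animal. Alternatives were a pseudocount of 0.1, other filters, median centring, quantile normalization, no trend, the number as a block, MGC libraries 1 and 2 alone, a 2-fold limit, an unadjusted p, and leaving out each library. The code was tested on simulated data.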

Additional observations from a re-analysis of the deposited data

Results flagged for a closer look

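For 3 members the genotype difference in cumulus cells (Sphk1/2gc−/− label against WT) and that in MGCs differed by the interaction test in limma over 12 libraries. For Scarb1, the HDL receptor, the difference between them was 1.74, with 0.95 in cumulus cells and −0.80 in MGCs. It kept an adjusted p of 0.05 or less in 6 of the 12 fits that left out a library, where the adjusted p ran from 0.0259 to 0.0927. For Mylip, a ubiquitin ligase, it was 1.55, with 1.05 and −0.49, and it passed in 9 of 12 such fits, with an adjusted p of 0.00356 to 0.0667. For Stard4, a sterol carrier, it was −1.59, with −1.70 and −0.11, and it passed in 5 of 12 such fits, with an adjusted p of 0.0121 to 0.114. All 3 rest on the cumulus label, which Sphk1 goes against. With the sign of the cumulus difference turned, a value chosen after seeing the data and not tested, the difference would be −0.15 for Scarb1, −0.56 for Mylip and 1.81 for Stard4.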

How the results depend on the processing

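In cumulus cells, 12 members lower stayed within 9 to 18 under each alternative and ran from 10 to 17 when a library was left out, and 3 higher fell to 1 without a filter or with the 2-fold limit and ran from 1 to 3 (1 without WT library 2, or library 2 or 3 labelled Sphk1/2gc−/−). Over all genes tested, leaving out a library gave 684 to 2197 lower and 588 to 1733 higher. In MGCs, 0 lower became 4 and 0 higher became 3 with libraries 1 and 2 alone, 2 lower had an unadjusted p of 0.05 or less, and leaving out a library gave 0 to 0. In the interaction, 1 relatively lower became 2 with a pseudocount of 0.1, 0 without a filter or with quantile normalization, 9 with the replicate block, 9 with MGC libraries 1 and 2 alone and 11 at an unadjusted p, and ran from 0 to 8 when a library was left out. There the 8 came without cumulus library 1 labelled Sphk1/2gc−/−, where 513 of 15917 genes tested were relatively lower. WT MGC library 3 left out gave 6, where 360 of 15995 genes tested were. Over all 15869 genes, 1715 were relatively lower at an unadjusted p of 0.05 or less, and 170 passed with a pseudocount of 0.1. The 2 relatively higher became 1 without a filter and ran from 0 to 2. Members higher in WT cumulus cells, 8, became 13 with MGC libraries 1 and 2 alone and ran from 7 to 11, and those lower, 12, from 12 to 13. Over all genes, 3855 of 15973 tested were higher with MGC libraries 1 and 2 alone. Leaving out a library gave 3526 to 4042 genes higher and 7727 to 8745 lower. The median log2 fold change of the synthesis members ran from −1.38 to −0.96 in cumulus cells and from −0.32 to 0.22 in MGCs when a library was left out. That of the other members ran from −0.27 to −0.12 in cumulus cells, with −0.12 without library 2 labelled Sphk1/2gc−/−, and from −0.20 to −0.05 in MGCs. Mvk in MGCs ran from −0.021, without Sphk1/2gc−/− library 3, to 1.019, without Sphk1/2gc−/− library 1. Why these values moved was not tested. In cumulus cells same-numbered libraries had correlations of −0.148, −0.0511 and 0.115, and the block gave 13 lower and 2 higher, Cyp51 being added and Abca1 lost. Of all 12205 genes tested, 1084 were lower and 913 higher with that block. Fdps and Lipe, at 0 to 32 reads in cumulus cells, were below the filter on low values there. With the sign of the cumulus difference turned, chosen after seeing the data, the interaction values reversed, to −0.15 for Scarb1, −0.56 for Mylip and 1.81 for Stard4.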
